A study of Mus musculus with 3 samples.

Results

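The cells described here were sorted neocortical cells that held the transcript of Id3 together with that of Gstm7 or Cd1d1. They were chosen by 6 genes: at least 1 UMI (a uniquely tagged transcript) of Id3, at least 1 UMI of Gstm7 or Cd1d1, and 0 UMIs of Nos1, Igfbpl1 and Neurod6, in cells with more than 700 detected genes and less than 10% mitochondrial UMIs. These measured values define the cells and are not findings about them. In all, 54 of 9433 cells that passed the quality limits met the rule (of 12324 cells in the files): the E16.5 library gave 45 of its 3952 cells, the P1 library 9 of 2501, and the P5 library 0 of 2980. They are called Id3+Gstm7/Cd1d1+ cells below.

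The 3 libraries came from the neocortex (NCx) of mice that carried Sst-Cre and the RCE reporter (RCEloxP), with 1 library per stage: embryonic day 16.5 (E16.5, tissue pooled from 6 animals), postnatal day 1 (P1, 3 animals) and P5 (3 animals). All groups thus share the Cre allele and the reporter, and GFP marks cells in which Cre, driven by the Sst locus, has acted at any earlier time, whether or not they hold Sst mRNA when sorted. GFP+ and DAPI-negative cells were sorted and profiled with droplet-based single-cell RNA-seq. The preparation differed in a Percoll step at P1 and P5, and at P5 in a shorter pronase digestion with added trypsin and DNase, so that stage cannot be told apart from library and preparation. Because cells of a library are not replicates, no test was made, and the intervals given are exact 95% intervals that cover counting error only (Clopper-Pearson for shares, Poisson for levels, and a conditional binomial for ratios).

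ID proteins such as ID3 and ID2 are helix-loop-helix proteins without a DNA-binding domain. They pair with E proteins such as TCF4 and TCF12, which bind E-box motifs, and thereby keep them from DNA, and they are known for holding back differentiation in many tissues. Cortical SST+ interneurons are born in the medial ganglionic eminence, where Lhx6 is switched on as they leave the cell cycle, and then migrate tangentially to the cortex. GSTM7 is a glutathione S-transferase of the mu class, and CD1D1 is an antigen-presenting molecule related to MHC class I.

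On GRCm38, Id3 lies on the forward strand at chr4:136143497-136145755, Gstm7 on the reverse strand at chr3:107926334-107931817, Cd1d1 on the reverse strand at chr3:86995834-86999441, and Id2 on the reverse strand at chr12:25093799-25097140. The promoters of Id3 and Gstm7, which set the rule, and of Id2, which had the largest ratio among the genes higher in these cells, are shown because E proteins and nuclear factor I (NFI) proteins are among the products described here. Each sequence runs 5′ to 3′ on the gene's strand, from 250 bases before a start annotated in RefSeq (GRCm38.p6) to 50 after it. The gene intervals above are from GENCODE, which places the starts of Id3 and Id2 elsewhere. The Id3 and Id2 windows lie wholly inside those intervals and are therefore not upstream of the starts given there. Capitals mark the E-box CANNTG and the NFI half-site TTGGC, and on the opposite strand its reverse complement is GCCAA.
Id3, chr4:136143572-136143871, forward strand: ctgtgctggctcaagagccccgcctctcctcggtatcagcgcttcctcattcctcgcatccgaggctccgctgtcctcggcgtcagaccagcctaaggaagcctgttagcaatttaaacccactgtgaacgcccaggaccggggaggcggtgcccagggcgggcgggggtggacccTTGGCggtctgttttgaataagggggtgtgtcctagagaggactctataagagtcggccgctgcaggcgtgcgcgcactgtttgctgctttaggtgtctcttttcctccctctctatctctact
Id2, chr12:25096043-25096342, reverse strand: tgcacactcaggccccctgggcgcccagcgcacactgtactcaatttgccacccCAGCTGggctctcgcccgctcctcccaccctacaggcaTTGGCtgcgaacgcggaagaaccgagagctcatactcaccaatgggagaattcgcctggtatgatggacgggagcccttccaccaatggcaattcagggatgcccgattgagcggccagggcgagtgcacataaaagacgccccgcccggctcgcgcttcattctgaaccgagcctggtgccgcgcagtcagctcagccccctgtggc
Gstm7, start site 1, chr3:107931768-107932067, reverse strand: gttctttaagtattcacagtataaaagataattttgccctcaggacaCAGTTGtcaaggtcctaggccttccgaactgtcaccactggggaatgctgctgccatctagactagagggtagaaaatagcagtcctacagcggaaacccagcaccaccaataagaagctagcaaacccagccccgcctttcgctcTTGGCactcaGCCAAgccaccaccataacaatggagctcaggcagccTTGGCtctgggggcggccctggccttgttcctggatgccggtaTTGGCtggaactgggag
Gstm7, start site 2, chr3:107931565-107931864, reverse strand: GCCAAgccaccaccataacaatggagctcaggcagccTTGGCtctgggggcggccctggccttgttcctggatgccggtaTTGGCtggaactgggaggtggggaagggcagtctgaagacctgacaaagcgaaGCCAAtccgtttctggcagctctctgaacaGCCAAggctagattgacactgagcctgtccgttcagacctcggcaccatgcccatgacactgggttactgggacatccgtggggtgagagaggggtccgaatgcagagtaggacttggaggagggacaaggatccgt
The Id3 window held 0 E-boxes and 1 NFI half-site, and the Id2 window held 1 of each. The window at the Gstm7 start site 1 held 1 E-box and 4 NFI half-sites, and the one at start site 2, which overlaps it, held 0 and 5. Of 32851 promoters of this length, 72.3% held CANNTG on either strand and 46.7% held TTGGC. The E-box form CACCTG, which is one of the CANNTG forms, was in 20.2% of them and in 0 of these 4 windows. These matches describe the letters of the windows only.

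Id3+Gstm7/Cd1d1+ cells made up 1.14% of the E16.5 library (95% interval 0.832% to 1.52%) and 0.360% of the P1 library (0.165% to 0.682%). At P5 none was found, and the interval reached up to 0.124%. These shares were not taken at equal depth. The median quality-passing cell held 5577 UMIs in the E16.5 library, but 3293 in the P1 library and 3935.5 in the P5 library. The quality limits dropped 1939 of the 4440 P1 cells, but fewer E16.5 cells (526 out of 4478) and P5 cells (426 out of 3406). What part depth had in the differences between the shares was not tested. The 3 genes of the rule were less abundant in the later libraries as a whole. Summed over all quality-passing cells, the Id3 level was 33.3, 19.7 and 1.01 CPM (the UMIs of a gene per 1000000 UMIs of the same cells) at E16.5, P1 and P5. Gstm7 was at 17.2, 2.74 and 1.47 CPM, and Cd1d1 was at 17.0, 3.38 and 0.388 CPM.

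**Figure D1:**
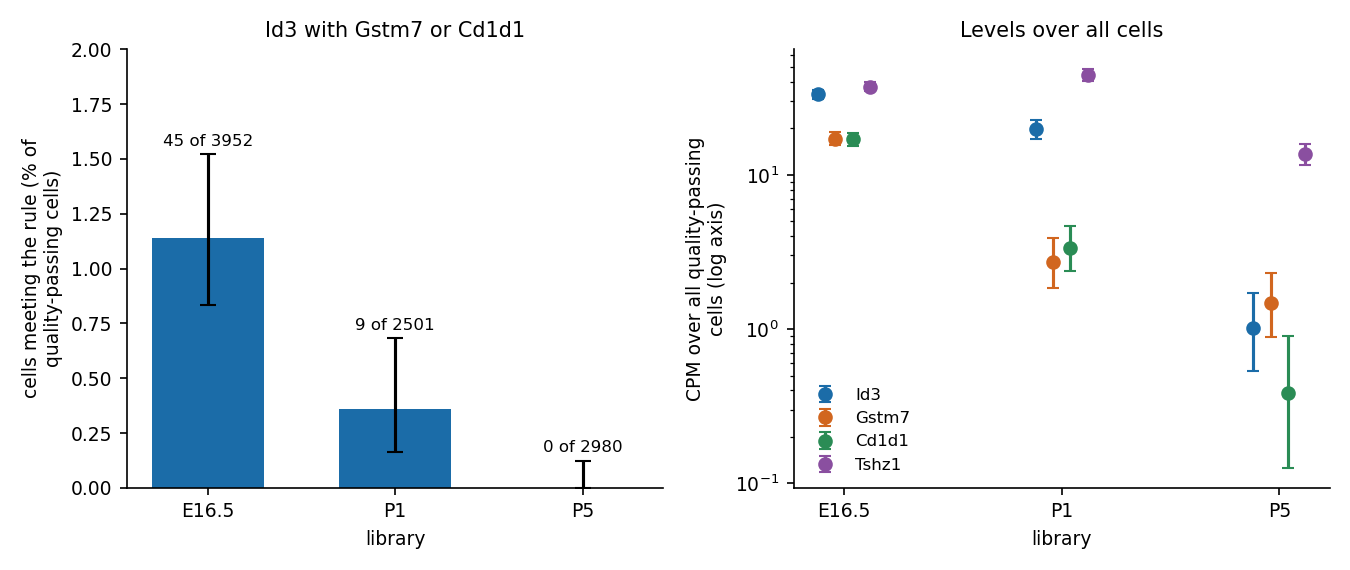
Left, the share of quality-passing cells that met the rule at E16.5, P1 and P5 (bars, percent; lines, exact Clopper-Pearson intervals). Right, the level of Id3, Gstm7, Cd1d1 and Tshz1 over all quality-passing cells of each library (points, CPM on a log axis; lines, exact Poisson intervals). The share was 1.14%, 0.360% and 0%, and the Id3 level was 33.3, 19.7 and 1.01 CPM.

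Most cells sat close to the limits of the rule. At E16.5, 24 of 45 cells held 1 Id3 UMI and 21 held 2 or more, with a maximum of 7, and 29 held 1 UMI of the second gene. At the minimum of both were 17 of 45 cells, and at P1 6 of 9. Just outside the rule at E16.5 were 118 cells with Id3 but without Gstm7 and Cd1d1, 209 cells with Gstm7 or Cd1d1 but without Id3, and 106 cells that met every condition but for a UMI of Igfbpl1. Igfbpl1 alone thus took out 106 of the 151 cells with Id3 and a second gene, and Nos1 and Neurod6 took out 0. Of the 45 cells, 14 held Gstm7 alone, 23 Cd1d1 alone and 8 both.

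Id3 was not seen in the excitatory-type cells of the E16.5 library, whereas Gstm7 and Cd1d1 were. The background was read in cells with at least 2 UMIs of Neurod6, a transcription factor of excitatory neurons, and without Lhx6 (35 cells at E16.5, median 12405 UMIs). Whether such cells express Gstm7 or Cd1d1 themselves was not tested. Id3 was in 0 of them (upper limit 10.0%), Gstm7 in 17.1% (6.56% to 33.6%) and Cd1d1 in 25.7% (12.5% to 43.3%), against 11.4%, 9.26% and 9.57% of all E16.5 cells (median 5577 UMIs). The Neurod6 cells were deeper, so these shares are not at equal depth. As levels, Gstm7 was at 17.2 CPM over all cells, 15.2 CPM (6.10 to 31.3) in Neurod6 cells and 29.6 CPM (19.4 to 43.4) in cells with Id3 and without the 3 excluded genes, and Cd1d1 at 17.0, 21.7 (10.4 to 39.9) and 42.2 CPM (29.7 to 58.1). After each cell was thinned to 1500 UMIs, 10.0% of the cells with Id3 (16 of 160; 5.83% to 15.7%) held Gstm7 or Cd1d1, as did 3.61% of those without Id3 (57 of 1577; 2.75% to 4.66%) and 5.71% of the Neurod6 cells (2 of 35; 0.700% to 19.2%), among cells free of Nos1, Igfbpl1 and Neurod6 for the first 2 classes. The share in Id3 cells was not distinguishable from that of the Neurod6 cells at this depth, where the interval of 35 cells is wide. Its interval lay above that of the cells without Id3. At P1 the thinned shares were 0.893% (1 of 112), 1.11% (13 of 1174) and 4.55% (1 of 22).

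The label of immature interneurons was checked against genes that the rule did not use. Lhx6 was in 38 of 45 cells at E16.5 and in 9 of 9 at P1. Doublecortin (Dcx), a microtubule protein of migrating neurons, was in 43 of 45, and Gad2, which makes GABA, was in 38 of 45. Dcx was also in 96.1% of the comparison cells described below, which all held Lhx6, and in 97.1% of the Neurod6 cells. It therefore does not tell these cells from other neurons of the E16.5 library. Gad2 was in 76.6% of the comparison cells and 2.86% of the Neurod6 cells. Tshz1, a zinc finger transcription factor given as a marker of these cells, was in 11 of 45, so most of them held no Tshz1 UMI, and 23 of 45 held no Gstm7. The cells were therefore taken as Lhx6 interneurons with Id3, and are named by the rule rather than by Gstm7 or Tshz1. Other cell types left few counts: over the 45 cells there were 0 UMIs of 9 microglial markers, 1 UMI of 11 endothelial and mural markers, 1 UMI of 9 excitatory markers (the rule itself required 0 UMIs of Neurod6) and 3 UMIs of 7 oligodendrocyte lineage markers. The 13 astrocyte and radial glia markers summed to 72.9 CPM (18 UMIs), against 76.8 CPM in the comparison cells, and 7 of them, Fabp7, Slc1a3 and Aldoc among them, were at 0.

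The cells were compared with Lhx6 cells of the same library that held 0 UMIs of Id3, Gstm7 and Cd1d1 (2438 at E16.5 and 1763 at P1). Lhx6 was required of the comparison cells only, and 38 of the 45 cells at E16.5 held it. The 45 cells summed to 246825 UMIs, with 2535 to 10526 per cell (median 5020, against 5891 in the comparison cells), and the 9 cells at P1 to 35588 UMIs, with 2205 to 5802 per cell (median 3944, against 3886). Their median mitochondrial share was 3.56% against 4.17% at E16.5, and 5.28% against 6.01% at P1. None of them was among the 5% of cells with the most UMIs. The libraries shared 3, 1 and 6 cell barcodes (E16.5 with P1, E16.5 with P5, P1 with P5), and none belonged to an Id3+Gstm7/Cd1d1+ cell. Ratios are log2 of the summed levels with a pseudocount of 10 CPM added to both, which understates the difference of low genes. A gene was called where the levels differed at least 2-fold, and since only E16.5 had 20 cells or more, calls rest on that library alone.

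At E16.5, 43 of 4314 measured genes were at least 2-fold higher in Id3+Gstm7/Cd1d1+ cells (0.997%) and 118 were at least 2-fold lower (2.74%). The median over all measured genes was 0.05 on the log2 scale. The comparison cells include Nos1 and Igfbpl1 cells, which the rule keeps out of the other group. Against the 1193 comparison cells that also lacked Nos1, Igfbpl1 and Neurod6, 52 of the same genes were higher (1.21%) and 128 lower (2.97%). The 15 higher and 10 lower genes with the largest ratio against both sets of comparison cells are described next.

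Several of the named higher genes encode regulators of transcription. Id2, the relative of Id3, was at 195 CPM (143 to 258; 48 UMIs in 22 of 45 cells) against 26.1 CPM, a log2 ratio of 2.50 (2.43 to 3.33 without pseudocount). At P1, Id2 was at 253 against 40.9 CPM, but its 9 UMIs came from 2 of 9 cells. Nfib, an NFI transcription factor, was at 450 CPM (111 UMIs in 29 cells, at most 13 in 1 cell) against 87.9 CPM, a log2 ratio of 2.23 (2.06 to 2.64). Its P1 ratio of 2.15 rests on 1 cell that held 13 of the 14 UMIs. Nfia, of the same family, was at 77.0 against 13.3 CPM at E16.5 (19 UMIs in 11 cells) and had 0 UMIs in the 9 cells at P1. Among these 3 genes, the E16.5 levels thus stood apart from the comparison cells, while P1 offered too few cells with a UMI for a second look.

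Id2, Nfib and Nfia are also abundant in excitatory neurons. After thinning to 1500 UMIs, Id2 was in 24.4% of Id3+Gstm7/Cd1d1+ cells, 3.82% of comparison cells and 51.4% of Neurod6 cells, and Nfib was in 44.4%, 9.30% and 80.0%. Nfia was in 6.67%, 2.29% and 57.1%. Whether RNA of excitatory neurons had a part in these levels was not tested. Without thinning, Id2 was in 48.9% of the Id3+Gstm7/Cd1d1+ cells and 9.31% of the comparison cells. No thinned cell was lost from the 45, and 83 comparison cells were too shallow.

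Sox4, a SoxC transcription factor of newborn neurons, had UMIs in 45 of 45 cells at E16.5. So it did in 92.2% of comparison cells and 35 of 35 Neurod6 cells, so the difference lies in its level. Its level was 4448.5 CPM (4189 to 4719.6) against 1591 CPM at E16.5, a log2 ratio of 1.48 (1.40 to 1.57), and 1770.3 (1360.3 to 2265) against 749.7 CPM at P1, where it was in 9 of 9 cells. The long non-coding RNA Gm26735 (chr13:28943048-28951671), which overlaps Sox4 (chr13:28948919-28953713) on the opposite strand, was at 340.3 against 120.1 CPM, so these 2 values may share reads if strands were not separated. Sox1, a SoxB1 factor, was at 271 against 98.7 CPM (67 UMIs in 28 cells). Zfp536, a zinc finger gene, was at 178 against 61.4 CPM at E16.5 and 225 against 64.0 CPM at P1, and the lincRNA Gm45768, 151.0 kb away on chromosome 7, was at 126 against 40.6 CPM and 169 against 49.9 CPM. At both stages all 5 were higher in the Id3+Gstm7/Cd1d1+ cells, by a log2 ratio of 0.74 (Gm26735 at P1) to 1.67 (Zfp536 at P1), although the P1 intervals of Gm26735 (-0.65 to 1.92) and Sox1 (-0.20 to 2.00) reached below 0.

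Neb, which encodes the giant filament protein nebulin best known from muscle, was at 178 CPM (129.5 to 239; 44 UMIs in 17 cells) against 30.4 CPM at E16.5 and at 618 CPM (387 to 936; 22 UMIs in 6 of 9 cells) against 111 CPM at P1. Unlike Id2, its log2 ratio was carried by most cells at P1 (2.22 and 2.38). Gucy1a1, a subunit of the nitric oxide receptor guanylate cyclase, was at 174 against 54.6 CPM and at 478 against 130.2 CPM (log2 1.51 and 1.80). Tshz1 was at 97.2 CPM (24 UMIs in 11 cells) against 25.5 CPM, and at 140.5 CPM (5 UMIs in 3 cells) against 36.3 CPM. These 3 genes thus stood higher at both stages, with the ratio intervals of each above 0. After thinning, Neb was in 22.2% of the cells against 5.01% of comparison cells and 2.86% of Neurod6 cells, and Tshz1 in 15.6%, 3.69% and 5.71%. Without thinning, Tshz1 was in 24.4% of the cells and in 28.6% of the deeper Neurod6 cells.

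Of the other named genes on the higher side, Cadps2, a secretory vesicle priming factor, was at 85.1 against 11.3 CPM (21 UMIs in 16 cells). Pcyox1, which breaks down prenylated cysteine, was at 126 against 35.6 CPM. Golm1, a Golgi membrane protein, was at 105 against 30.1 CPM, and Reep3, an endoplasmic reticulum protein, at 77.0 against 24.8 CPM. At P1 these 4 genes had 0 to 2 UMIs in the 9 cells.

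On the lower side, the neuropeptide gene Npy had the largest ratio. It was at 93.2 CPM (59.1 to 140; 23 UMIs in 11 of 45 cells) against 2089.6 CPM, with UMIs in 61.3% of comparison cells, a log2 ratio of -4.35 (-5.14 to -3.90). Part of the comparison level sat in cells with Nos1, Igfbpl1 or Neurod6: without them it was 1186 CPM at E16.5, and the log2 ratio was -3.54. At P1 Npy was at 843 CPM against 5839.7 CPM in all comparison cells but 819 CPM in those without the 3 genes, a log2 ratio of 0.04, so that the P1 difference depended on which cells were compared.

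Sst itself was at 952 CPM (834 to 1082) against 3218 CPM at E16.5, a log2 ratio of -1.75 (-1.95 to -1.57), and was found in 18 of 45 cells against 79.6% of comparison cells. At P1 Sst was at 169 CPM (6 UMIs in 4 of 9 cells) against 2316 CPM. Cort, a neuropeptide related to somatostatin, was at 8.10 CPM (2 UMIs) against 80.2 CPM, a log2 ratio of -2.32 (-6.35 to -1.45 without pseudocount). Among 4 measured genes of neuropeptides and calcium-binding proteins, 3 were called lower (Sst, Npy and Cort), with a list median of -2.03, where 2.74% of all measured genes were called lower.

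Among the other named lower genes, Gap43, a growth cone protein, was at 93.2 CPM (23 UMIs in 13 cells) against 642 CPM at E16.5 and at 393 CPM against 1547 CPM at P1, and it was in 64.2% and 81.5% of comparison cells. The adhesion molecules Ntm and Opcml were at 52.7 against 344 CPM and at 8.10 (2 UMIs) against 143 CPM. The RNA-binding protein gene Khdrbs3 was at 44.6 against 299 CPM, and had 0 UMIs in the 9 cells at P1 against 254 CPM. Snhg11, a host gene of small nucleolar RNAs that is abundant in neurons, was at 219 against 1303.5 CPM at E16.5 and 169 against 1615 CPM at P1. The log2 ratios of these 5 genes ran from -3.08 (Opcml; interval -7.19 to -2.29) to -2.50 (Ntm and Khdrbs3) at E16.5. Grin3a, an NMDA receptor subunit, was at 8.10 CPM (2 UMIs) against 164 CPM, and Neto1, a glutamate receptor auxiliary subunit, at 16.2 CPM (4 UMIs) against 207.5 CPM. Ppp1r14c, a phosphatase inhibitor, rested on 1 UMI (4.05 against 86.8 CPM, log2 ratio interval -9.73 to -1.94), and Igsf3, an immunoglobulin superfamily protein, on 2 UMIs (8.10 against 100.3 CPM, interval -6.68 to -1.77). At P1 Igsf3 was at 140.5 against 184 CPM (5 UMIs in 4 of 9 cells, log2 -0.37, -2.01 to 0.84), and Opcml at 112 against 278 CPM, with an interval that reached 0 (-3.18 to 0.05).

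**Figure D2:**
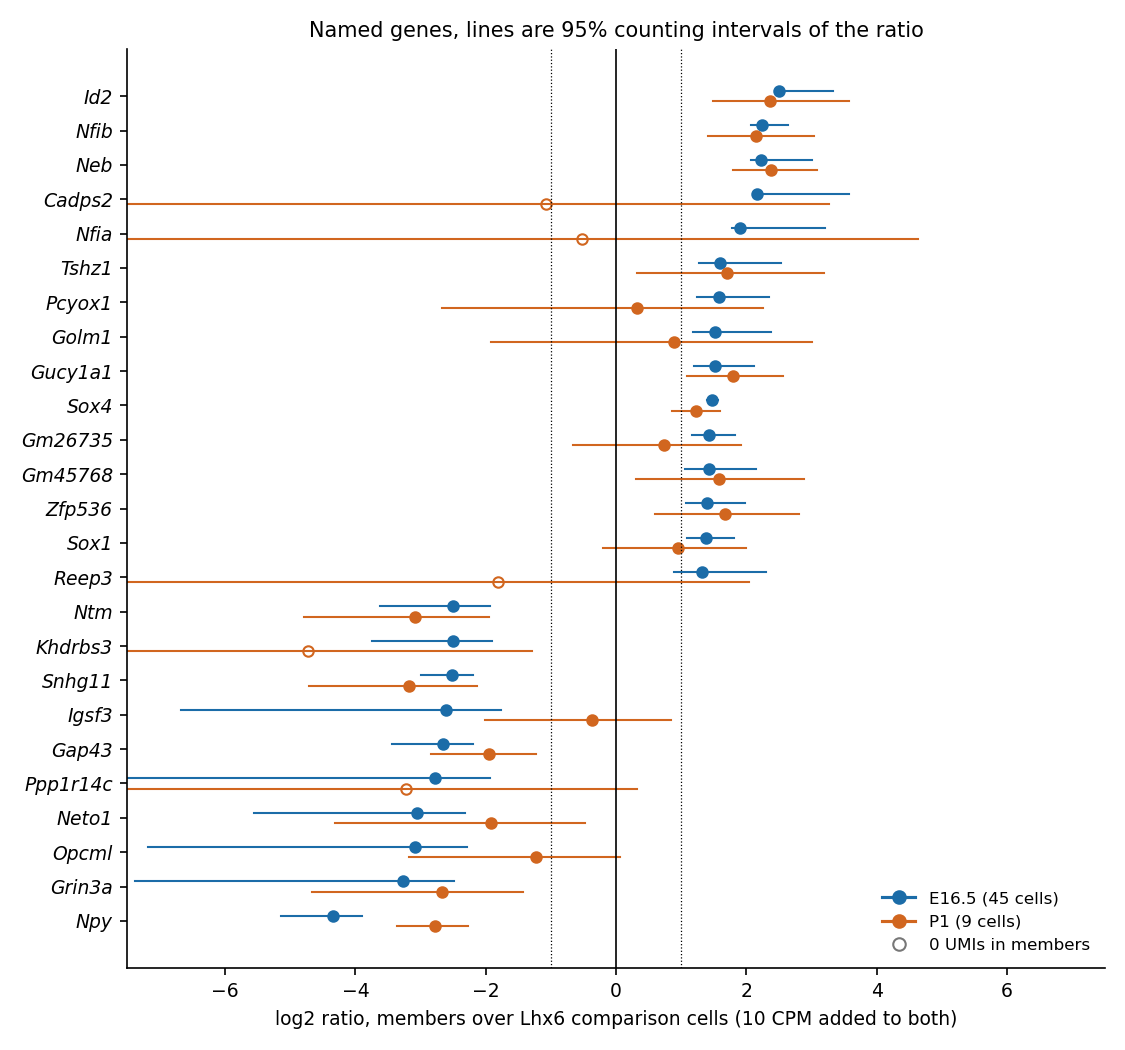
The log2 ratio of Id3+Gstm7/Cd1d1+ cells over comparison cells (horizontal axis) for the 15 named higher and 10 named lower genes at E16.5 and P1. Points include the pseudocount of 10 CPM, lines are the 95% counting interval of the ratio without it, open circles are genes with 0 UMIs in the cells, and dotted lines mark 2-fold. At E16.5 the points run from 2.50 (Id2) to -4.35 (Npy).

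The P1 cells and their own comparison cells, which share no cell with E16.5, gave a second set of values. With no minimum level at P1, 32 of the 43 genes called higher at E16.5 were higher there too (74.4%, against 48.5% of all 4314 measured genes), 18 of them at least 2-fold, and 11 were lower, 4 at least 2-fold. The 9 cells held 0 UMIs of 5 of the 43. Of the 118 genes called lower, 98 were lower at P1 (83.1%, against 51.5% of all), 59 of them at least 2-fold, and 20 were higher. The 9 cells held 0 UMIs of 13 of the 118. With so few cells, a gene with a low level often has 0 UMIs, which counts as lower.

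Single cells combined the named genes to different degrees. Of the 15 named higher genes, an E16.5 cell held a UMI of 3 to 13 (median 8), against a median of 3 (0 to 14) in the comparison cells. Of the 10 named lower genes it held 0 to 5 (median 1), against a median of 5 (0 to 10). At P1 the medians were 6 against 3 and 4 against 6. Because these genes were picked by their ratio in the same cells, this only describes how they were spread over the cells. In the plot of single cells Sox4 is present in every column.

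**Figure D3:**
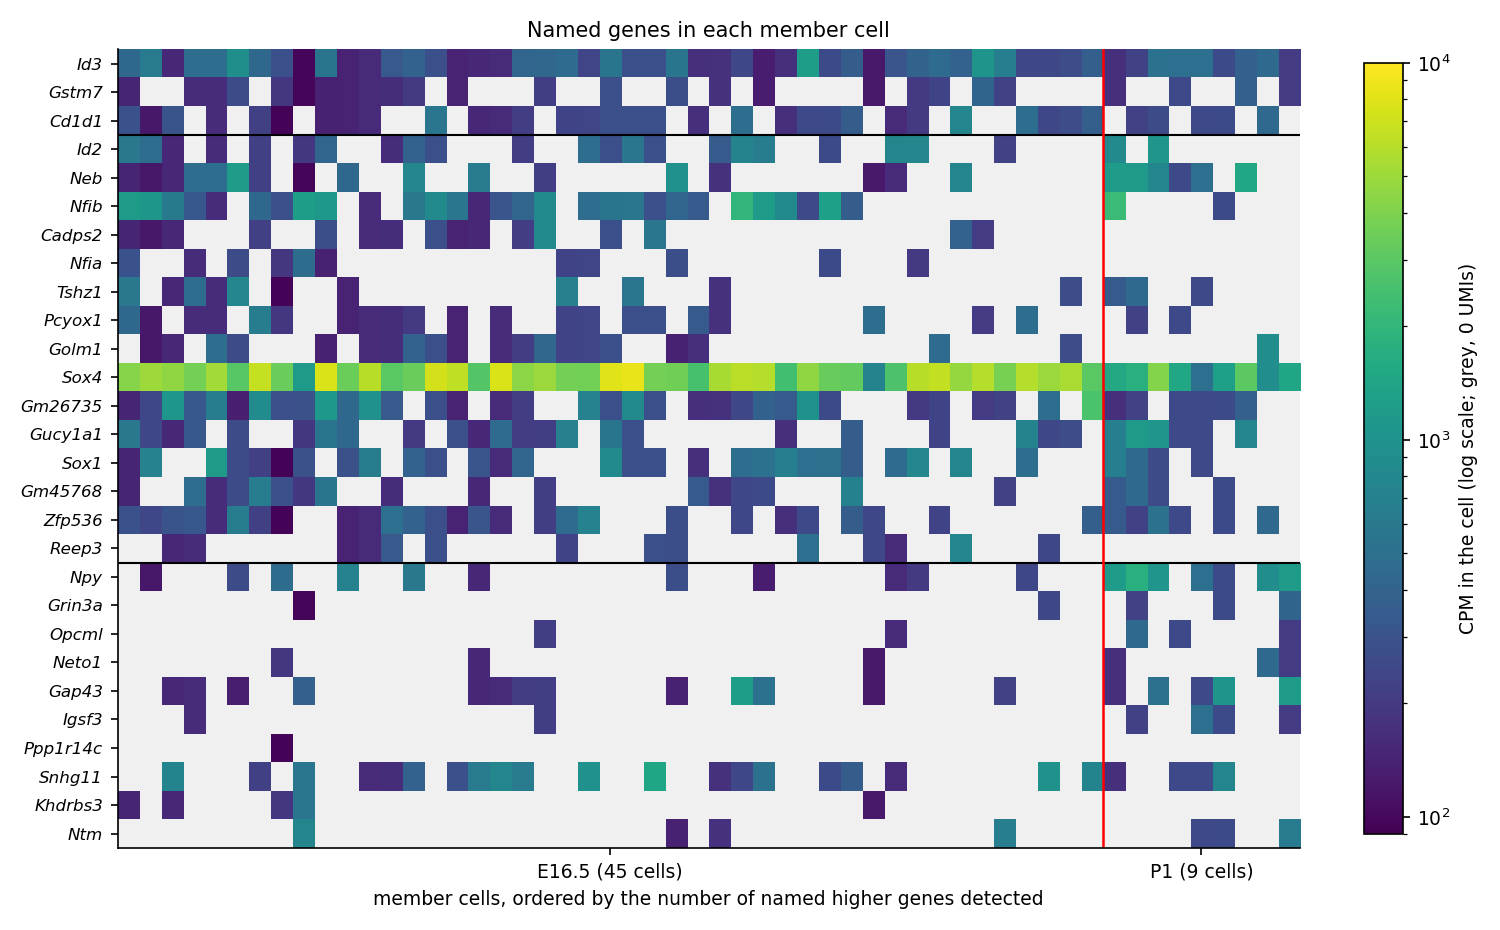
Level of the rule genes and named genes (rows) in each of the 54 Id3+Gstm7/Cd1d1+ cells (columns, grouped by library), as CPM per cell on a log colour scale, with grey for 0 UMIs. Sox4 has a UMI in 45 of 45 cells at E16.5 and 9 of 9 at P1, Id2 in 22 and 2, Neb in 17 and 6, and Npy in 11 and 7.

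Among the ID proteins and their partners, 3 genes were measured and 1 was called higher (Id2). Over all measured genes, 0.997% were called higher and 2.74% lower. Tcf4, an E protein gene, was at 4534 CPM against 2741 CPM and found in 45 of 45 cells, a log2 ratio of 0.72 (0.64 to 0.81), and at P1 at 4833 against 3341 CPM. Tcf12 was at 259 against 139 CPM (log2 0.86) and 393 against 160.3 CPM at P1. Neither reached 2-fold at E16.5. Id1 had 1 UMI, Id4 4 UMIs and Tcf3 6 UMIs in the 45 cells, too few for a ratio. Within the TSHZ family, Tshz1 was higher and Tshz3 lower (72.9 against 158.5 CPM, log2 -1.02), but Tshz3 did not reach 2-fold against the comparison cells without Nos1, Igfbpl1 and Neurod6 (-0.83), and Tshz2 had 2 UMIs.

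The pathways around ID proteins had few measured genes, so a lack of calls says little about them. The share called over all measured genes was 0.997% on the higher side and 2.74% on the lower. ID genes are classical targets of BMP signalling, and of 32 BMP and TGF-beta pathway genes 7 were measured and 0 called, with a median of 0.20 and ratios from -0.86 (Acvr2a, a receptor) to 0.59 (Smad4, the common mediator), and 15 were at 0 UMIs, among them the ligands Bmp2, Bmp4 and Bmp7. Of 16 Notch pathway genes 2 were measured and 0 called (Hes6 0.64 and Rbpj 0.40), and Hes1 and Hes5, the Notch targets of neural progenitors, were at 0 UMIs. The 18 proliferation genes summed to 109 CPM (27 UMIs) against 101.5 CPM, with Mki67 and Top2a at 0. Of 26 matched genes of glutathione metabolism besides Gstm7, 6 were measured and 0 called (median -0.17). Gstm5 was at 85.1 against 86.4 CPM, and Gstm2, Gstm3 and Gstm4 were at 0. Of 7 other MHC class I genes 0 were measured, and the antigen-presentation partners B2m, Tap1 and Tap2 were at 0. The genes named in this paragraph at 0 were also low in the E16.5 comparison cells, from 0 CPM (Bmp7 and Gstm3) to 4.61 CPM (Mki67). Their zeros thus do not set the Id3+Gstm7/Cd1d1+ cells apart.

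Among the transcription factors of interneurons from the medial ganglionic eminence, 17 genes were measured, 3 called higher and 4 called lower, with a median of 0.15, where 0.997% and 2.74% of all measured genes were called. Maf, a large Maf factor, was at 1252 CPM (1116 to 1399.6) against 560.1 CPM, and was in 45 of 45 cells and 84.8% of comparison cells. Zeb2 was at 1852 CPM (1686 to 2029) against 864 CPM, and was in 45 of 45 cells and 88.9% of comparison cells. Sp9, a zinc finger factor, was at 332 against 131 CPM. At P1 Maf was at 2613 against 1607 CPM and Zeb2 at 2585 against 1198 CPM. On the lower side were Satb1, a chromatin organizer needed for SST+ interneuron maturation (231 against 623.5 CPM), Npas1 (20.3 against 127 CPM, 5 UMIs), Nr2f2 (12.2 against 141 CPM, 3 UMIs) and Etv1 (12.2 against 77.7 CPM, 3 UMIs). Lhx6, which the comparison required, is left out of this count. Of 9 GABAergic genes 8 were measured and 0 called (median 0.03), with Gad2 at 401 against 287 CPM. Dlx1, Dlx2, Dlx5 and Dlx6 belong to both of these lists. Of 16 markers of the caudal and lateral eminences 1 was measured and 12 were at 0 UMIs, Prox1, Sp8, Adarb2 and Meis2 among them. These named markers were low in the comparison cells as well, from 0.187 CPM (Sp8) to 5.99 CPM (Meis2). Pbx3, outside the measured set, had 13 UMIs in 6 cells (52.7 against 3.55 CPM).

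Of the genes of migration and of immature neurons 19 were measured, 2 called higher (Sox4 and Cxcr4), 1 called lower (the guidance receptor Robo2), with a median of 0.25. Cxcr4, the receptor that guides interneurons along CXCL12, was at 174 CPM (43 UMIs in 24 cells) against 71.8 CPM, and its partner Ackr3 was at 215 against 116 CPM. Dcx was at 1175 against 899 CPM. Of 23 measured synaptic and excitability genes 5 were called lower and 0 higher, with a median of -0.20. Slc12a5, the chloride exporter of maturing neurons, and the sodium channel gene Scn2a were among the 5, with log2 ratios of -1.10 and -1.14. The migration list's 3 calls and the synaptic list's 5 stand beside backgrounds of 0.997% higher and 2.74% lower over all measured genes. Of 5 measured immediate early and dissociation genes 2 were called lower, Fos (12.2 against 111 CPM, 3 UMIs) and Klf6 (32.4 against 93.0 CPM, 8 UMIs), and the 20 genes summed to 442 against 804 CPM. These genes respond to tissue handling, and their part in the other differences was not tested. Of 6 measured BCL2 family and caspase genes 0 were called.

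The marker lists of SST+ types are those the study used to name its clusters, which it drew from adult cells and canonical markers. Beside the shares of all measured genes (0.997% higher and 2.74% lower), 10 of the Martinotti markers were measured and 7 called lower (Npas1, Elfn1, Nr2f2, Satb1, Etv1, Reln and Pcdh7), with a median of -1.37. Npas1, Nr2f2, Satb1 and Etv1 are the same genes that were called lower among the medial ganglionic eminence factors, so the lists are not separate results. Reln, a secreted matrix protein, was at 24.3 against 154 CPM (6 UMIs), and Elfn1, a synaptic adhesion protein, at 64.8 against 181 CPM. Of the non-Martinotti markers 6 were measured and 1 called higher, Ptprd (960.2 against 417 CPM, a receptor phosphatase), with a median of 0.60. Against the comparison cells without Nos1, Igfbpl1 and Neurod6 this median was 0.35, with 1 gene called higher and 1 lower. The Martinotti median was then -1.18. Of the LRP (long-range projecting) markers 2 were measured and both were called lower, Npy and Ptn (72.9 against 208.5 CPM). Npy was also counted in the neuropeptide list. Of 11 measured stress markers 1 was called lower (Cdh13) and 0 higher. Of 5 measured basket-type genes, a list not taken from the study, Cntnap4 was called higher (146 against 49.3 CPM) and the median was 0.77, with Mef2c at 1559.8 against 912 CPM and Erbb4 at 502 against 252.5 CPM, while Pvalb and Syt2, which mark basket cells later, were at 0 UMIs. In the comparison cells Pvalb and Syt2 were at 0.125 and 0.935 CPM.

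**Figure D4:**
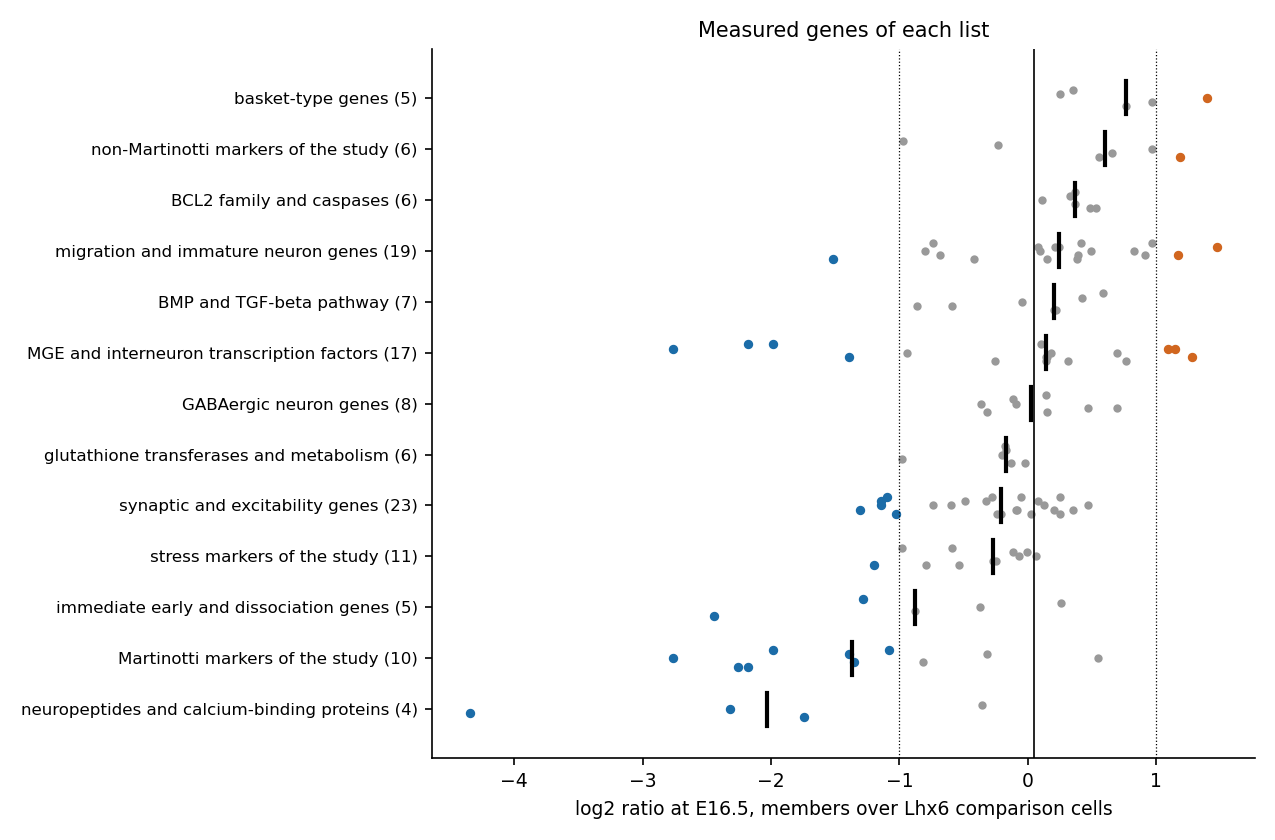
The log2 ratio at E16.5 of each measured gene (points) in the 13 gene lists with at least 4 measured genes. Black bars mark the list medians, the solid vertical line the median of all 4314 measured genes (0.05), and coloured points genes past 2-fold. The medians run from -2.03 (neuropeptides and calcium-binding proteins) to 0.77 (basket-type genes).

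Cells that met only a piece of the rule were set beside the Id3+Gstm7/Cd1d1+ cells. For the genes given here, cells with Id3 alone lay nearer to them than cells with Gstm7 or Cd1d1 alone did. At E16.5, Sox4 was at 1514 CPM in cells with none of the 3 genes (1494 cells), 2038 CPM in cells with Gstm7 or Cd1d1 alone (209), 3741 CPM in cells with Id3 alone (118), 3988 CPM in the cells set aside for Igfbpl1 (106) and 4448.5 CPM in the Id3+Gstm7/Cd1d1+ cells. Gap43 went the other way, at 634, 662, 212, 178 and 93.2 CPM, and so did Khdrbs3, at 352, 252, 92.0, 77.7 and 44.6 CPM. Neb was at 24.8, 53.0, 103, 146 and 178 CPM in the same order. Maf was at 518, 644, 1005, 1048 and 1252 CPM, and Sst at 3134, 2927, 1311, 1271 and 952 CPM.

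**Figure D5:**
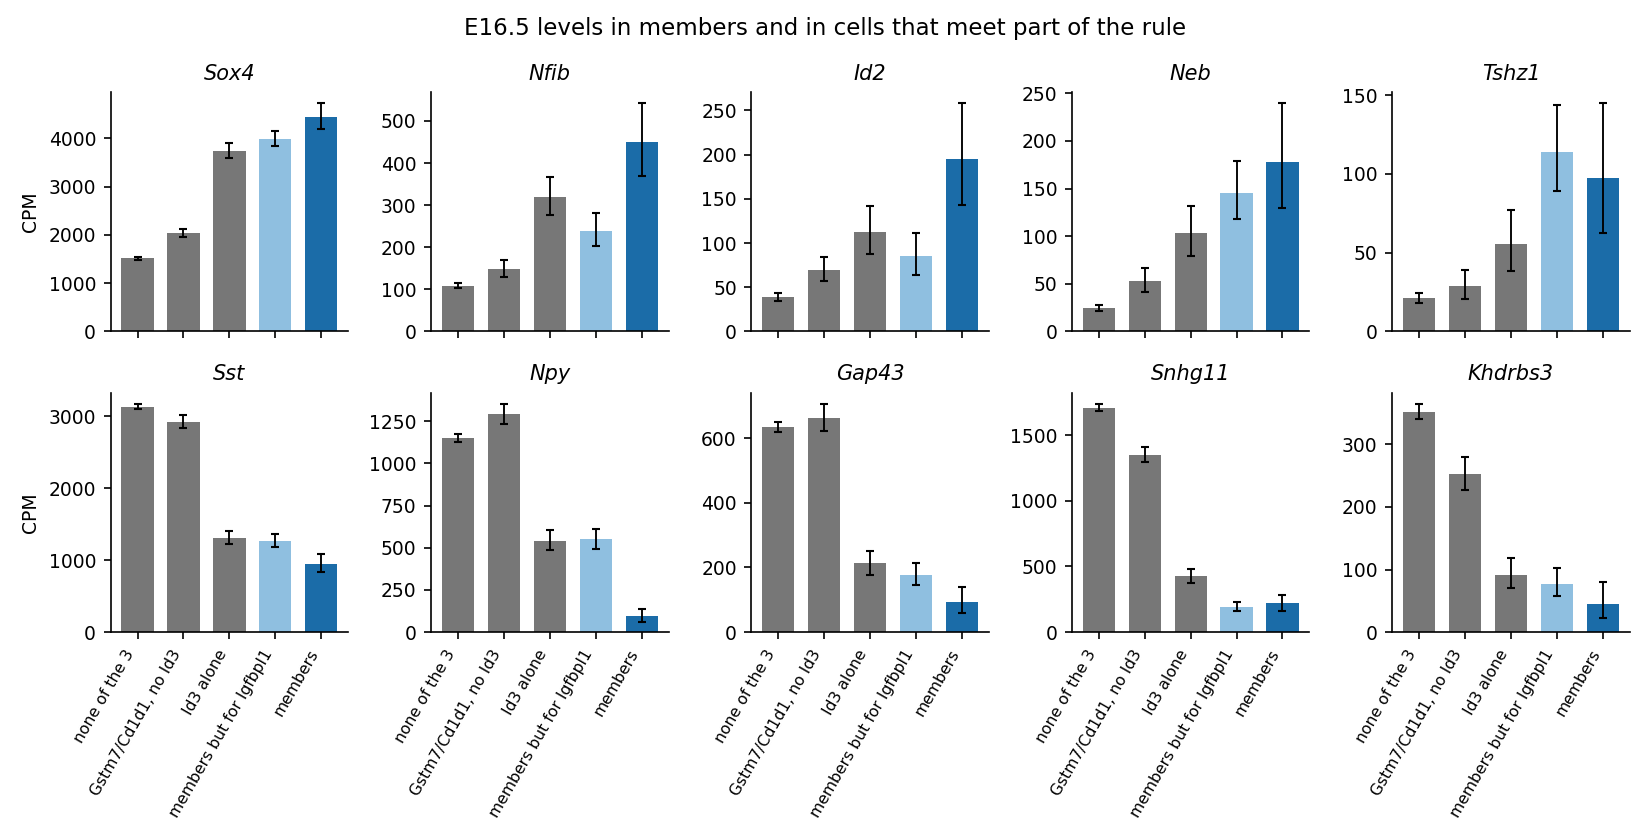
Levels of 10 genes at E16.5 (bars, CPM; lines, exact Poisson intervals) in cells with none of Id3, Gstm7 and Cd1d1, with Gstm7 or Cd1d1 only, with Id3 only, with Id3, a second gene and Igfbpl1, and in the Id3+Gstm7/Cd1d1+ cells. Sox4 runs from 1514 to 4448.5 CPM and Gap43 from 662 to 93.2 CPM.

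Against the 118 cells with Id3 alone, 18 of 4305 measured genes were at least 2-fold higher (0.418%) and 38 lower (0.883%). The log2 ratio to them was -2.42 for Npy and 1.24 for Pcyox1, and 0.74 for both Id2 and Neb, which did not reach 2-fold. Nfia, at 1.24, went past 2-fold as Pcyox1 did. Gucy1a1 (-0.01), Gm26735 (0.12), Gm45768 (0.15) and Zfp536 (0.20) lay near the level of the cells with Id3 alone. So did Zeb2 (0.02) and Mef2c (0.003), and the intervals of all these genes near that level reached across 0. Against the 106 cells set aside for Igfbpl1, a gene of the insulin-like growth factor binding protein family, 28 of 4225 genes were higher (0.663%) and 22 lower (0.521%). Id2 differed from those cells by 1.10 (0.59 to 1.77), Cadps2 by 1.56 (0.90 to 3.03) and Npy by -2.44 (-3.24 to -1.96). In contrast Sox4 (0.16, 0.05 to 0.26), Neb (0.27, -0.26 to 0.82) and Tshz1 (-0.21, -0.96 to 0.45) lay near the level of those cells.

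The other nearby groups were cells with Cxcr4 and Igfbpl1 (824 at E16.5), and cells with Id2 and Pde3a or Sorcs1 (90). Of the 45 cells, 5 also met the latter rule and 5 held Mef2c with Me3 or Pde5a. Against the Cxcr4 and Igfbpl1 cells, 27 of 4271 genes were higher (0.632%) and 49 lower (1.15%), with Nfib at a log2 ratio of 1.94, Cadps2 at 2.16, Sox4 at 0.91 and Npy at -3.72. Against the Id2 cells, 22 of 4358 genes were higher (0.505%) and 98 lower (2.25%), the latter with the neurofilament gene Nefl and the synaptotagmin gene Syt4. Neb (1.47), Pcyox1 (1.31) and Tshz1 (1.11) were higher than in the Id2 cells, and Nfib (-0.60, -0.93 to -0.31) was lower without reaching 2-fold.

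Cells that met the rule through Gstm7 and those that met it through Cd1d1 were similar in many but not all genes. At E16.5, the 14 cells with Gstm7 alone and the 23 with Cd1d1 alone had Nfib at 426 and 474 CPM, Sst at 797 and 825 CPM and Id2 at 146 and 209 CPM. Neb was at 303 against 94.8 CPM, whereas Sox1 was at 123 against 322 CPM. Ntm was at 146 CPM in the Gstm7 cells, where all 13 of its UMIs lay in 4 cells, and at 0 CPM in the Cd1d1 cells.

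Between stages, the named genes changed in different ways. From E16.5 to P1, Sox4 was lower in the Id3+Gstm7/Cd1d1+ cells by a log2 ratio of -1.32 and in the comparison cells by -1.08, and Neb was higher by 1.74 and 1.58. Gap43 was higher by 1.97 and 1.26. Snhg11 differed in direction (-0.36 and 0.31), and Khdrbs3 (-2.45 and -0.23) and Cadps2 (-3.25 and -0.02) had 0 UMIs in the 9 cells at P1. Npy was higher by 3.05 and 1.48, and Sst was lower by -2.43 and -0.47, where the P1 value rests on 6 UMIs. In the comparison cells at P5, where no Id3+Gstm7/Cd1d1+ cell was found, 12 of the 43 genes called higher at E16.5 (27.9%) were at least 2-fold below P1, against 7.33% of all 4314 measured genes, and 0 were 2-fold above it. Of the 118 genes called lower, 10 (8.47%) were at least 2-fold above P1 at P5, against 3.41% of all. Sox4 in comparison cells was at 1591, 749.7 and 312 CPM at E16.5, P1 and P5, Neb at 30.4, 111 and 15.3 CPM, and Snhg11 at 1303.5, 1615 and 4024 CPM. With 1 library per stage, these differences cannot be told apart from differences between libraries.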

How the data were processed

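GFP+ cells of the NCx were profiled in 1 droplet library per stage (E16.5, P1 and P5). The authors deposited UMI counts per gene and cell, as whole numbers without normalization, and used Cell Ranger 3.0.2 for P1 and 3.1.0 for the other libraries. The submitters' processing notes also name STAR and GRCm38. The libraries held 25638779, 15654107 and 13429055 UMIs over 31053 genes. The tools were Python 3.11.15, pandas 2.3.3, numpy 2.4.6, scipy 1.17.1 and, for figures, matplotlib 3.10.9. Gene coordinates came from GENCODE release M21.

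Counts were summed per class and library and scaled to CPM. Measured genes had a mean level of the compared classes worth at least 10 UMIs in the Id3+Gstm7/Cd1d1+ cells; mitochondrial, ribosomal protein and Y-linked genes and the 7 genes of the rule and comparison were left out. Named genes were the 15 higher and 10 lower genes with the largest smaller ratio over both comparison sets, the genes of the ID, TSHZ, CD1 and Gstm families, and from each list the 4 most abundant and all called genes. Pbx3 was named after its values were seen, as were genes listed at 0. The cells and the gene lists were chosen with earlier results of these data known. Shares were compared after thinning to 1500 UMIs per cell. No doublet caller was run, and 1 alternative left out the deepest 5% of cells. The steps were tested on simulated data. Of the alternatives tried, 20 were planned and 4 were chosen after seeing the data. Cd1d2 was not matched among the listed genes. Some called genes, and 1 result flagged by opposite signs at E16.5 and P1, are not reported here.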

Additional observations from a re-analysis of the deposited data

How the results depend on the processing

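The rule sits on single UMIs, so its limits set the number of cells. With at least 2 Id3 UMIs the share was 0.531% at E16.5 and 0.120% at P1, and with Gstm7 required in place of Gstm7 or Cd1d1 it was 0.557% and 0.160%. The 43 higher and 118 lower genes at E16.5 became 66 higher with a pseudocount of 1 CPM, and 16 higher and 46 lower with 50 CPM. They became 98 and 322 with a minimum of 3 expected UMIs, and 17 and 27 with 30, where fewer genes were measured. With at least 2 Id3 UMIs, 52 genes were higher and 72 lower of only 2348 measured (2.21% and 3.07%), and the median of the non-Martinotti markers was 1.24. With the 106 Igfbpl1 cells counted in (added after the data were seen), 226 of 8162 measured genes were lower (2.77%), of which 77 were among the 118, and 36 were higher (0.441%), of which 18 were among the 43. Against comparison cells nearest in total UMIs, 38 were higher and 100 lower, but 23 of the 43 and 82 of the 118 were among them, and with the mean of per-cell CPM 26 of the 43 and 90 of the 118 were. Leaving out P1 or P5 gave 43 higher and 118 lower (lowest and highest alike), since both had fewer than 20 cells; leaving out E16.5 gave no value, because no library with 20 cells then remained. The median of the glutathione genes turned from -0.17 to 0.0284 with the mean of per-cell CPM. With only the 38 cells that also held Lhx6, 34 of 3868 measured genes were higher (0.879%) and 105 lower (2.715%). Of these, 31 were among the 43 and 95 among the 118. Centring on the median of all genes changed the higher share of the calls from 26.7% to 21.2%. Under the alternatives, 312 values of named genes moved by less than their counting error and 92 by more, and 0 changed sign. Of the 92, 18 came with a pseudocount of 50 CPM and 17 with the 106 Igfbpl1 cells counted in. Another 16 came against the comparison cells nearest in UMIs. The depth of 246825 UMIs leaves genes under about 10 UMIs with wide intervals, and with 1 library per stage the spread between animals was not measured.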
